A study of Mus musculus with 36 samples.

Results

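The genes described here are 10 receptors and secreted products by which mouse macrophages are recognised: Mrc1, Marco, Adgre1, Vcam1, Cd163, Clec4f, C1qa, Csf1r, Cd5l and Lyz2. They were chosen by name, as every probe whose gene symbol in the platform annotation is 1 of these 10. This gave 11 of the 23982 probes of the deposited value table, for 9 of the 10 genes. Adgre1 and Lyz2 had 2 probes each, the other 7 genes had 1 probe each, and Csf1r was not analysed here. Each Lyz2 and Adgre1 probe is described on its own, as probe 1 or probe 2, because the probes of a gene did not always move together.

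The samples were spleen and liver RNA of male BALB/c mice, all inoculated under the skin of the neck with J558 cells, a mouse myeloma line. Controls drank distilled water, and the treated mice drank oil palm phenolics (OPP), a water-soluble polyphenol extract, at 1500 ppm gallic acid equivalents. In each tissue there were 6 groups of 3 arrays, water and OPP at 18 hours, 1 week and 4 weeks, from mice aged 6, 7 and 10 weeks, on standard chow. Time and age therefore rise together, and no mice without myeloma cells are among the groups, so that a difference between times cannot be told apart from age and has no uninoculated control. The treatment text of every sample names 4 weeks after inoculation, so what the 3 times are counted from is not wholly settled. The labels do not say whether an array holds 1 mouse or a pool, and p-values measure only the spread between arrays, which may be technical.

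Macrophages of the liver sinusoids, the Kupffer cells, and those of the spleen take up particles, microbes and old red cells from the blood through scavenger and lectin receptors. In the spleen, red pulp macrophages recycle iron from red cells and carry F4/80 and VCAM-1, whereas marginal zone macrophages carry MARCO and meet blood-borne particles first. In mice Clec4f is a marker of resident Kupffer cells, and signalling through the CSF1 receptor keeps most tissue macrophages alive. Several of the genes are not confined to macrophages: the mannose receptor Mrc1 and the adhesion molecule Vcam1 are also made by endothelial cells, and lysozyme is made by neutrophils and monocytes.

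Promoter sequences of 3 of the genes are shown first, since Marco was high and Mrc1 and Clec4f were low in the same liver arrays at 18 hours. They are RefSeq sequences of the C57BL/6J reference (build GRCm38.p6), not of BALB/c, read 5′ to 3′ on the strand of the gene from 250 bases before to 50 bases after its start. Capitals mark GAGGAA, or TTCCTC where it lies on the other strand, letters that hold the core bound by PU.1, a transcription factor of the macrophage lineage.
Marco, chr1:120504975-120505274, minus strand: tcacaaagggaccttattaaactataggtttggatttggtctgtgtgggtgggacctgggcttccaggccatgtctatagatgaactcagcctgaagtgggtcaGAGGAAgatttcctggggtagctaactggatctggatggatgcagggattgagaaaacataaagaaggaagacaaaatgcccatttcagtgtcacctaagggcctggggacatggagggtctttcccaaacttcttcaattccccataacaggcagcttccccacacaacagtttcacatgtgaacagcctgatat
Mrc1, chr2:14229164-14229463, plus strand: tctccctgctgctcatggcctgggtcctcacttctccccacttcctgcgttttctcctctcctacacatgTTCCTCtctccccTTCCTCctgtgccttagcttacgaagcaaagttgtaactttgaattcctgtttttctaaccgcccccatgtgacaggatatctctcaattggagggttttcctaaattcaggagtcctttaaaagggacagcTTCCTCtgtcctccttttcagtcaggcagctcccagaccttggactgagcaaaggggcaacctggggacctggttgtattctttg
Clec4f, chr6:83656067-83656366, minus strand: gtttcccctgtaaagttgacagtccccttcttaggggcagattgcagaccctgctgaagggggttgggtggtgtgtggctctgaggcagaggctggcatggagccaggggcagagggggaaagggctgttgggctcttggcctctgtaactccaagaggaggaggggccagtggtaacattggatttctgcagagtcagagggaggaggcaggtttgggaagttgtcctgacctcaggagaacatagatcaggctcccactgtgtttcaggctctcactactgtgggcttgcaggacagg
The Marco promoter held the letters once, 146 bases before the start. In the Mrc1 promoter they lay on the other strand at 180, 167 and 35 bases before the start, and the Clec4f window had no match. The windows of Cd163 and Lyz2, which are not shown, had no match either. The table held promoters of 6 of the genes, 3 of them with a match (the third is Cd5l, at 66 bases before the start), and 9289 of all 32851 promoters of this length, 28.3%, had a match on either strand. A match of 6 letters is a description of the sequence only.

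In the deposited table every value is a linear ratio that divides an array's reading by the probe's median across the tissue's 18 arrays. All values below are log2 of these ratios, so that 0 is the median array and positive values lie above it. The ratios keep no absolute level: whether a probe was above background is unknown, levels of different genes or tissues cannot be compared, and the tissue of an array could not be checked against its defining markers. Each comparison is a limma fit on the log2 ratios with Benjamini-Hochberg adjustment over all 23982 probes, and a probe that changed is one with an adjusted p under 0.05. In these whole-tissue samples fewer cells of a type and less RNA per cell cannot be told apart. Of the 18 spleen arrays, the 3 from water mice at 1 week correlated with the other arrays of their own group at -0.00436, -0.136 and -0.215 over all probes, and replicate 3 of them correlated at 0.61 with the OPP group at 18 hours. Replicate 3 of the OPP group at 18 hours stood apart for several of the genes, as given below. Values without replicate 3 of either group are given beside the spleen results.

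In liver, the scavenger receptor Marco was the gene of the set that differed most between times. Water mice had Marco values of 3.26, 3.61 and 3.26 at 18 hours, -0.11, 0.24 and -0.04 at 1 week, and -0.19, -0.08 and -0.03 at 4 weeks. OPP mice had 3.36, 3.33 and 2.81 at 18 hours, then 0.00, 0.00 and 0.24 at 1 week and -0.19, -0.39 and -0.05 at 4 weeks. All 6 arrays at 18 hours lay far above all 12 later arrays. From 18 hours to 1 week Marco fell by 3.35 (SE 0.14, limma adjusted p = 8.41e-11) in water mice, a 10.2-fold difference, and in OPP mice it fell by 3.08 (SE 0.14, adjusted p = 3.46e-10), 8.48-fold. The 4-week difference from 18 hours was -3.48 in water mice and -3.38 in OPP mice, 11.2-fold and 10.4-fold. Between 1 and 4 weeks the change of -0.13 in water mice and -0.29 in OPP mice did not pass. Over the 18 liver arrays Marco had the 29th largest SD of all 23982 probes. The gene lies at chr1:120474538-120505024.

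Clec4f, the Kupffer cell lectin, ran the other way. In water mice it stood at -1.60, -1.65 and -1.87 at 18 hours, at 0.15, 0.28 and -0.35 at 1 week, and at 0.11, 0.21 and 0.44 at 4 weeks. In OPP mice the values were -2.22, -2.04 and -1.82, then 0.12, -0.07 and 0.28, then 0.20, -0.09 and 0.06. The 18-hour arrays were all lower than the later arrays, with a gap of more than 1 log2 unit between them. Clec4f rose by 1.73 from 18 hours to 1 week in water mice (SE 0.15, adjusted p = 1.1e-06), which is 3.32-fold, and by 2.13 in OPP mice (SE 0.15, adjusted p = 6.94e-08), 4.39-fold. By 4 weeks the rise from 18 hours was 1.96 and 2.08. The gene lies at chr6:83644542-83656116.

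Both probes of Adgre1, which encodes the macrophage surface protein F4/80, were high with Marco at 18 hours. Probe 2 gave 1.96, 2.09 and 1.62 in water mice and 1.79, 1.63 and 1.54 in OPP mice at 18 hours, against a range of -0.44 to 0.30 over the 12 later arrays. Probe 1 moved on a smaller scale, 0.22 to 0.50 at 18 hours against -0.38 to 0.04 later. The 18-hour arrays did not overlap with the later arrays for either probe. From 18 hours to 1 week probe 2 fell by 2.01 (SE 0.15, adjusted p = 3.15e-07) in water mice and in OPP mice it fell by 1.63 (adjusted p = 1.66e-06). Probe 1 fell by 0.58 (SE 0.09, adjusted p = 0.000339) in water mice and fell by 0.30 (adjusted p = 0.0203) in OPP mice. At 4 weeks against 18 hours the differences were -1.93 and -1.88 for probe 2 and -0.39 and -0.32 for probe 1, in water and OPP mice. The fall of probe 1 in OPP mice lost its call without replicate 1 or 2 at 18 hours or replicate 2 at 1 week (-0.29, -0.27 and -0.27), and without replicate 2 at 18 hours or replicate 2 at 4 weeks (-0.29 for both).

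Lysozyme M, the bactericidal enzyme encoded by Lyz2, was read by 2 probes that gave different sizes. Probe 1 stood at 0.59, 1.12 and 0.62 in water mice and 1.03, 0.86 and 0.84 in OPP mice at 18 hours, and between -0.52 and 0.25 in the 12 later arrays. Probe 2 ranged from -0.08 to 0.41 at 18 hours and from -0.25 to 0.17 later, so that its times overlapped. Probe 1 fell by 1.00 (SE 0.15, adjusted p = 0.000429) from 18 hours to 1 week in water mice and fell by 1.05 (adjusted p = 0.000112) in OPP mice. At 4 weeks it stood at -0.76 (adjusted p = 0.00327) and -1.04 against 18 hours. Probe 2 differed by -0.26 and -0.19 and did not pass (adjusted p = 0.202 and 0.33). The near-identical paralog Lyz1, whose transcripts such probes may share, did not pass in these comparisons. Over its own 2 probes the differences from 18 hours ran from -0.28 to 0.11.

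Mrc1, the mannose receptor, was low at 18 hours with Clec4f. Its values were -0.22, -0.50 and -0.52 in water mice and -0.56, -0.68 and -0.61 in OPP mice at 18 hours, and from -0.07 to 0.49 in the later arrays of both drinks. No 18-hour array reached a later one. It rose by 0.64 in water mice (SE 0.14, adjusted p = 0.0093) and by 0.72 in OPP mice (SE 0.14, adjusted p = 0.0015) to 1 week, and stood 0.66 and 0.77 above 18 hours at 4 weeks. In water mice the 1-week call was lost without replicate 3 at 18 hours (0.59) or replicate 1 at 1 week (0.56). Vcam1, the adhesion receptor for lymphocytes, rose by 0.63 between 18 hours and 4 weeks in water mice (SE 0.18, adjusted p = 0.0316), with values of 0.41, -0.12 and -0.47 at 18 hours and 0.68, 0.48 and 0.56 at 4 weeks. That call was lost in 5 of the 6 fits that left out 1 of these arrays, and the value without replicate 3 at 18 hours was 0.42. In OPP mice the Vcam1 difference of 0.28 did not pass.

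Cd163, the receptor that clears haemoglobin bound to haptoglobin, C1qa, a chain of complement C1q, and Cd5l, a protein that tissue macrophages secrete, did not pass between any 2 times in liver. Their 18 liver values lay between -0.35 and 0.28, -0.13 and 0.42, and -0.20 and 0.27 respectively. The 95% intervals of their 1-week differences ran from -0.32 to 0.39 over both drinks.

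Counted over probes, 6 of 11 changed from 18 hours to 1 week in liver of water mice, 4 lower and 2 higher, where 7.12% of all probes changed, 2.66% lower and 4.46% higher. At 4 weeks against 18 hours it was 7 of 11, 3 higher and 4 lower, where 9.21% of all probes changed (5.91% higher, 3.29% lower). In OPP mice it was 6 of 11 at both times, 2 higher and 4 lower, where 17.3% of all probes changed to 1 week (14.7% higher, 2.61% lower) and 16.9% to 4 weeks (13.7% higher, 3.16% lower). After quantile normalisation the rises and falls over all probes in OPP mice went from 3515 and 626 to 1847 and 754 at 1 week and from 3284 and 759 to 1738 and 928 at 4 weeks. From 1 to 4 weeks 0 of 11 changed in either drink (0.00417% of all probes in both), and 1 probe in each drink had an unadjusted p under 0.05. As groups of genes, the median difference of the 9 genes at 1 week in water mice was 0.05 against 0.01 over all probes, because rises and falls met.

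**Figure D1:**
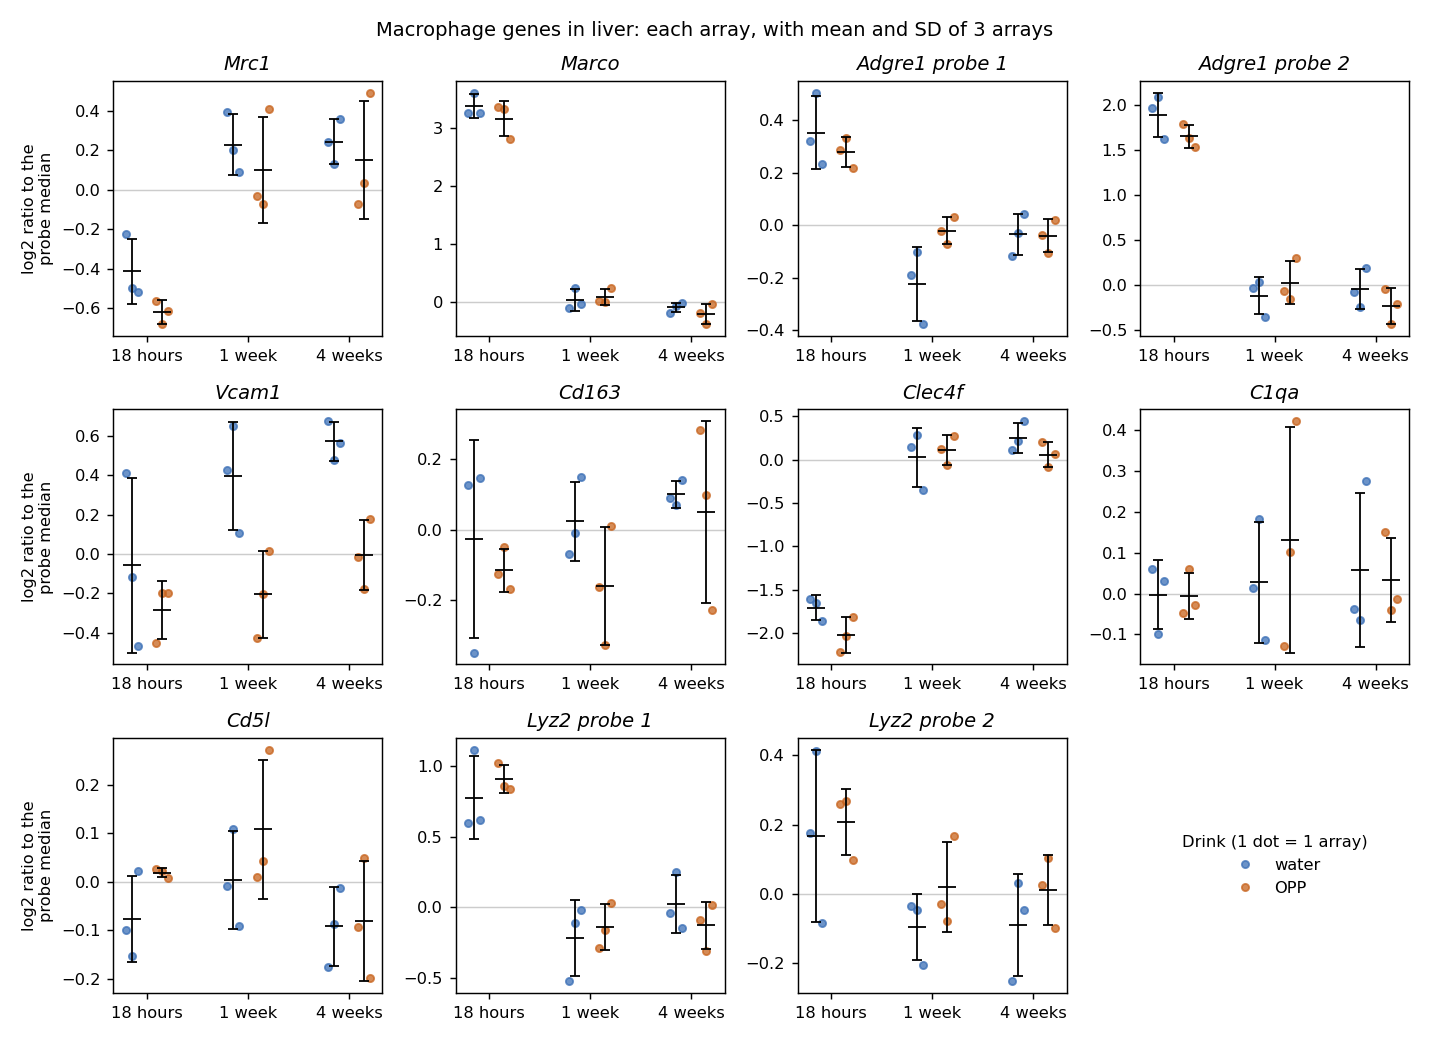
Log2 ratio to the probe median in liver (vertical axes, a separate scale for each probe) at 18 hours, 1 week and 4 weeks, with 1 dot per array, water in blue and OPP in orange, and bars for the mean and SD of 3 arrays. Marco, Adgre1 and Lyz2 probe 1 are high and Clec4f and Mrc1 low in all 6 arrays at 18 hours. Vcam1 dots at 1 and 4 weeks lie higher with water than with OPP, though the test passed at neither time.

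A wider list of 36 macrophage genes, of which 30 were measured, split in the same liver comparison. In water mice 6 rose and 8 fell from 18 hours to 1 week, with a list median of -0.16 against 0.01 for all probes. Vsig4, a complement receptor of Kupffer cells, rose by 1.09 and the Fc receptor Fcgr3 by 1.06, whereas the macrophage activation marker Aif1 fell by 1.58 and the haem-degrading enzyme Hmox1 fell by 0.86. In OPP mice 8 rose and 8 fell, with Vsig4 at 1.19 and Aif1 at -1.36. The list of CSF1 receptor ligands and signalling genes had 1 of 10 lower in water mice, the adaptor Tyrobp at -0.45, and 2 of 10 lower in OPP mice.

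Some markers of other cells also moved in liver. From 18 hours to 1 week 2.66% of all probes fell and 4.46% rose in water mice, and 2.61% and 14.7% in OPP mice. Of 14 neutrophil genes 5 fell from 18 hours to 1 week in either drink, and the median of the list on an array ranged from 0.06 to 0.22 over the 18-hour arrays against -0.19 to 0.00 over the later ones. The fall of its members was large in Lcn2 (-5.86 in water mice), which hepatocytes also make in the acute phase, Prtn3 (-2.76) and S100a8 (-2.35). Among 14 hepatocyte genes, 3 fell in water mice, the acute-phase proteins Hp (-2.15), Fgb (-1.21) and Hpx (-0.71), and 0 rose, with 9 of the 14 differences positive and a list median of 0.11 against 0.01 for all probes. In OPP mice 5 hepatocyte genes rose and 3 fell to 1 week, among them the apolipoprotein Apoc3 at 0.50. From 18 hours to 4 weeks 8 rose and 3 fell in OPP mice, where 13.7% of all probes rose and 3.16% fell. In water mice it was 1 and 4, where 5.91% rose and 3.29% fell. In OPP against water at 4 weeks 0 of the 14 hepatocyte genes passed, with 12 differences positive and 2 negative. Of 11 monocyte genes 2 fell in water mice, Treml4 (-0.62) and Plac8 (-0.93). The monocyte list median on the middle array of the water group was level, at 0.017 at 18 hours and 0.014 at 1 week. Of 14 endothelial genes 1 fell, the lymphatic and sinusoidal receptor Lyve1 (-0.69), although 12 of these 14 differences were positive, with a list median of 0.13. In OPP mice 3 endothelial genes rose to 1 week, Gpr182 (0.39), Eng (0.40) and Tek (0.39), and Lyve1 fell by 0.64. The part of these cells in the macrophage values was not tested.

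In spleen the genes took different courses: Mrc1 and Vcam1 had their highest means at 4 weeks, Marco at 18 hours, and Adgre1 probe 2, Cd163 and C1qa had their lowest means at 1 week. Arrays at 4 weeks as a whole stood higher, since the median of all probes was 0.14 above 18 hours and 0.15 above 1 week in water mice, and 0.11 and 0.17 above in OPP mice. Of the probes that changed from 1 to 4 weeks in water mice 5861 rose and 402 fell, against 2320 and 1103 after each array was centred on its median and 1046 and 1138 after quantile normalisation. In OPP mice the same split went from 6895 and 334 to 3381 and 1230 and to 2341 and 1770. From 18 hours it went from 5517 and 321 to 2504 and 980 and to 2031 and 1260 in water mice, and from 6474 and 252 to 4650 and 1348 and to 3826 and 1964 in OPP mice. At 1 week against 18 hours in water mice 23 rose and 133 fell, against 239 and 339 after quantile normalisation. Differences at 4 weeks are therefore to be read against these medians.

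Mrc1 had the largest rise from 18 hours to 4 weeks among the 11 probes in spleen. Water mice had values of -0.56, -0.18 and -0.60 at 18 hours, 0.38, 0.02 and -0.40 at 1 week, and 1.06, 0.96 and 0.95 at 4 weeks. OPP mice had -0.56, -0.97 and 0.05, then -0.29, -0.02 and -0.17, then 1.01, 0.74 and 0.83. All 6 arrays at 4 weeks were above all 12 earlier arrays, and the 2 earlier times overlapped. Mrc1 rose by 1.43 from 18 hours to 4 weeks in water mice (SE 0.20, adjusted p = 0.000436), 2.7-fold, and by 1.35 in OPP mice (SE 0.20, adjusted p = 4.06e-05), 2.56-fold. From 1 to 4 weeks it rose by 0.99 and 1.02.

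Vcam1, in spleen a protein of red pulp macrophages and endothelium, followed Mrc1. In water mice its values were -0.11, -0.05 and -0.27 at 18 hours, 0.21, 0.05 and 0.11 at 1 week, and 0.92, 0.66 and 0.48 at 4 weeks. In OPP mice they were -0.31, -0.42 and -0.06, then -0.38, -0.27 and -0.25, then 0.74, 0.75 and 0.97. The 4-week arrays again lay above all others. Vcam1 rose by 0.83 in water mice (SE 0.12, adjusted p = 0.000436) and by 1.08 in OPP mice (SE 0.12, adjusted p = 4.07e-06) from 18 hours to 4 weeks. From 1 to 4 weeks the rise was 0.56 in water mice and 1.12 in OPP mice, and whether the OPP effect on Vcam1 differed between times did not pass (moderated F test, adjusted p = 0.678).

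Marco, in spleen a receptor of marginal zone macrophages, was high at 18 hours as in liver. Water mice had 1.64, 1.77 and 1.64 at 18 hours, -0.07, -0.35 and -0.49 at 1 week, and 0.63, 0.24 and 0.23 at 4 weeks. OPP mice had 1.80, 1.01 and -0.56 at 18 hours, -1.003, -0.58 and -0.67 at 1 week, and 0.03, -0.33 and -0.04 at 4 weeks. The third OPP array at 18 hours lay far below the other two, within the range of the later arrays. From 18 hours to 1 week Marco fell by 1.99 in water mice (SE 0.34, adjusted p = 0.0149), 3.97-fold, and in OPP mice it was 2.83-fold lower (SE 0.34 on the log2 scale, adjusted p = 0.0221). The 4-week difference from 18 hours in water mice was -1.32 (adjusted p = 0.00897), and the OPP difference of -0.86 did not pass. Without replicate 3 at 18 hours that OPP difference was -1.51 and passed (adjusted p = 2.87e-05). It also passed after centring (-0.99) and after quantile normalisation (-1.02). The 1-week fall lost its call without replicate 2 at 18 hours in water mice (-1.94), and in OPP mice without replicate 1 or 2 at 18 hours (-0.97 and -1.37) or replicate 1 or 3 at 1 week (-1.37 and -1.54). Under quantile normalisation the 4-week fall in water mice was -0.89 and did not pass.

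Adgre1 probe 2, Cd163 and C1qa had their lowest means at 1 week. Adgre1 probe 2 gave 0.28, 0.31 and 0.31 in water mice at 18 hours, -0.49, -0.69 and -0.79 at 1 week, and 0.32, 0.05 and 0.17 at 4 weeks. In OPP mice it gave 0.17, -0.13 and -0.87, then -0.99, -0.74 and -0.80, then 0.15, 0.07 and -0.06. Every 1-week array was below every 4-week array. The probe fell by 0.95 from 18 hours to 1 week in water mice (SE 0.17, adjusted p = 0.018) and rose by 0.83 (adjusted p = 0.00307) and 0.90 (adjusted p = 0.000888) from 1 to 4 weeks in water and OPP mice. The fall lost its call without replicate 2 at 18 hours (-0.95) or replicate 2 at 1 week (-0.93). In OPP mice the 1-week difference of -0.57 did not pass, and it passed at -0.87 without replicate 3 at 18 hours (adjusted p = 0.00109). Under quantile normalisation the rise in water mice was 0.81 and did not pass. Adgre1 probe 1 stayed between -0.21 and 0.30 in the 18 spleen arrays and passed in none of the comparisons, except at -0.44 from 18 hours to 4 weeks in water mice after quantile normalisation (adjusted p = 0.0319).

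From 18 hours to 1 week Cd163 and C1qa passed in neither drink in the fit of all 18 arrays without rescaling. At 18 hours Cd163 ranged from -0.34 to 0.39 and C1qa from -0.57 to 0.35 over both drinks, which overlapped with 1 week. Cd163 had values from -0.64 to -0.13 over the 6 arrays at 1 week and from -0.08 to 0.68 over those at 4 weeks. It rose by 0.79 in water mice (SE 0.16, adjusted p = 0.00321) and by 0.71 in OPP mice (adjusted p = 0.00294) between these times. C1qa ranged from -0.60 to -0.15 at 1 week and from 0.19 to 0.46 at 4 weeks, without overlap. It rose by 0.67 (SE 0.15, adjusted p = 0.00494) and by 0.91 (adjusted p = 0.000375), and in OPP mice also by 0.58 from 18 hours to 4 weeks (adjusted p = 0.00563). That last call was lost without replicate 3 at 18 hours (0.39) and under quantile normalisation (0.35), and without the same array the fall of C1qa in OPP mice to 1 week passed at -0.52.

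The 2 Lyz2 probes did not run together in spleen, where their correlation over 18 arrays was -0.04. Probe 1 rose by 0.62 in water mice (SE 0.20, adjusted p = 0.0273) and by 0.64 in OPP mice (adjusted p = 0.0182) from 1 to 4 weeks, and by 0.84 from 18 hours in OPP mice (adjusted p = 0.0026). Its water values at 1 week were 0.13, -0.13 and -1.003, the last in replicate 3, and at 4 weeks 0.11, 0.18 and 0.56. Without that replicate the rise in water mice was 0.28 and did not pass, nor did it without replicate 1 (0.71) or 3 (0.48) at 4 weeks. In OPP mice it was lost without replicate 2 at 1 week (0.56) or replicate 3 at 4 weeks (0.60). After centring the rises were 0.50 and 0.51 and after quantile normalisation 0.35 and 0.38, and none of these passed. Probe 2 differed by 0.45 and -0.01 and did not pass. The paralog Lyz1 rose by 0.68 and 0.78 (its 2 probes) from 1 to 4 weeks in water mice, and over the spleen arrays these probes correlated with Lyz2 probe 1 at 0.74 and 0.56 and with Lyz2 probe 2 at -0.02 and 0.22.

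Clec4f and Cd5l passed in no spleen comparison. Their spleen values stayed between -0.18 and 0.49 and between -0.31 and 0.25, and the difference nearest to the threshold was Clec4f from 1 to 4 weeks in OPP mice (-0.26, adjusted p = 0.146). That difference passed after centring (-0.40) after quantile normalisation (-0.60) and with array weights (-0.28), and without replicate 1 at 1 week (-0.41).

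In counts, 6 of 11 probes rose and 0 fell from 1 to 4 weeks in spleen, in water mice where 26.1% of all probes changed (24.4% higher, 1.68% lower) and in OPP mice where 30.1% did (28.8% higher, 1.39% lower). Without replicate 3 of the water group at 1 week it was 5 of 11, with Mrc1 at 0.79, Adgre1 probe 2 at 0.77, Vcam1 at 0.55, Cd163 at 0.66 and C1qa at 0.57. In water mice it was 5 of 11 after centring and 4 of 11 after quantile normalisation. In OPP mice it was 6 of 11 under both, of which Clec4f was lower, since Lyz2 probe 1 no longer passed. Between 18 hours and 4 weeks 3 of 11 changed in water mice, 2 higher and 1 lower, where 24.3% of all probes did (23% higher, 1.34% lower), and 4 of 11 in OPP mice, all higher, where 28% did (27% higher, 1.05% lower), shares near the background. Between 18 hours and 1 week 2 of 11 fell in water mice (0.65% of all probes changed, 0.0959% higher and 0.555% lower) and 1 of 11 in OPP mice (4.16% changed, 2.32% higher and 1.84% lower), or 3 of 11 without replicate 3 of the OPP group at 18 hours, where the Marco difference was -2.15. Without the same array the 4-week differences from 18 hours in OPP mice were 1.62 for Mrc1 and 1.18 for Vcam1. The shares above are those with all arrays. Fits that left out 1 array gave 48 to 1144 of all probes from 18 hours to 1 week in OPP mice, against 997. From 1 to 4 weeks in water mice such fits gave 2530 to 7128, against 6263. The median difference from 1 to 4 weeks was 0.67 and 0.71 over the 9 genes against 0.15 and 0.17 over all probes.

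**Figure D2:**
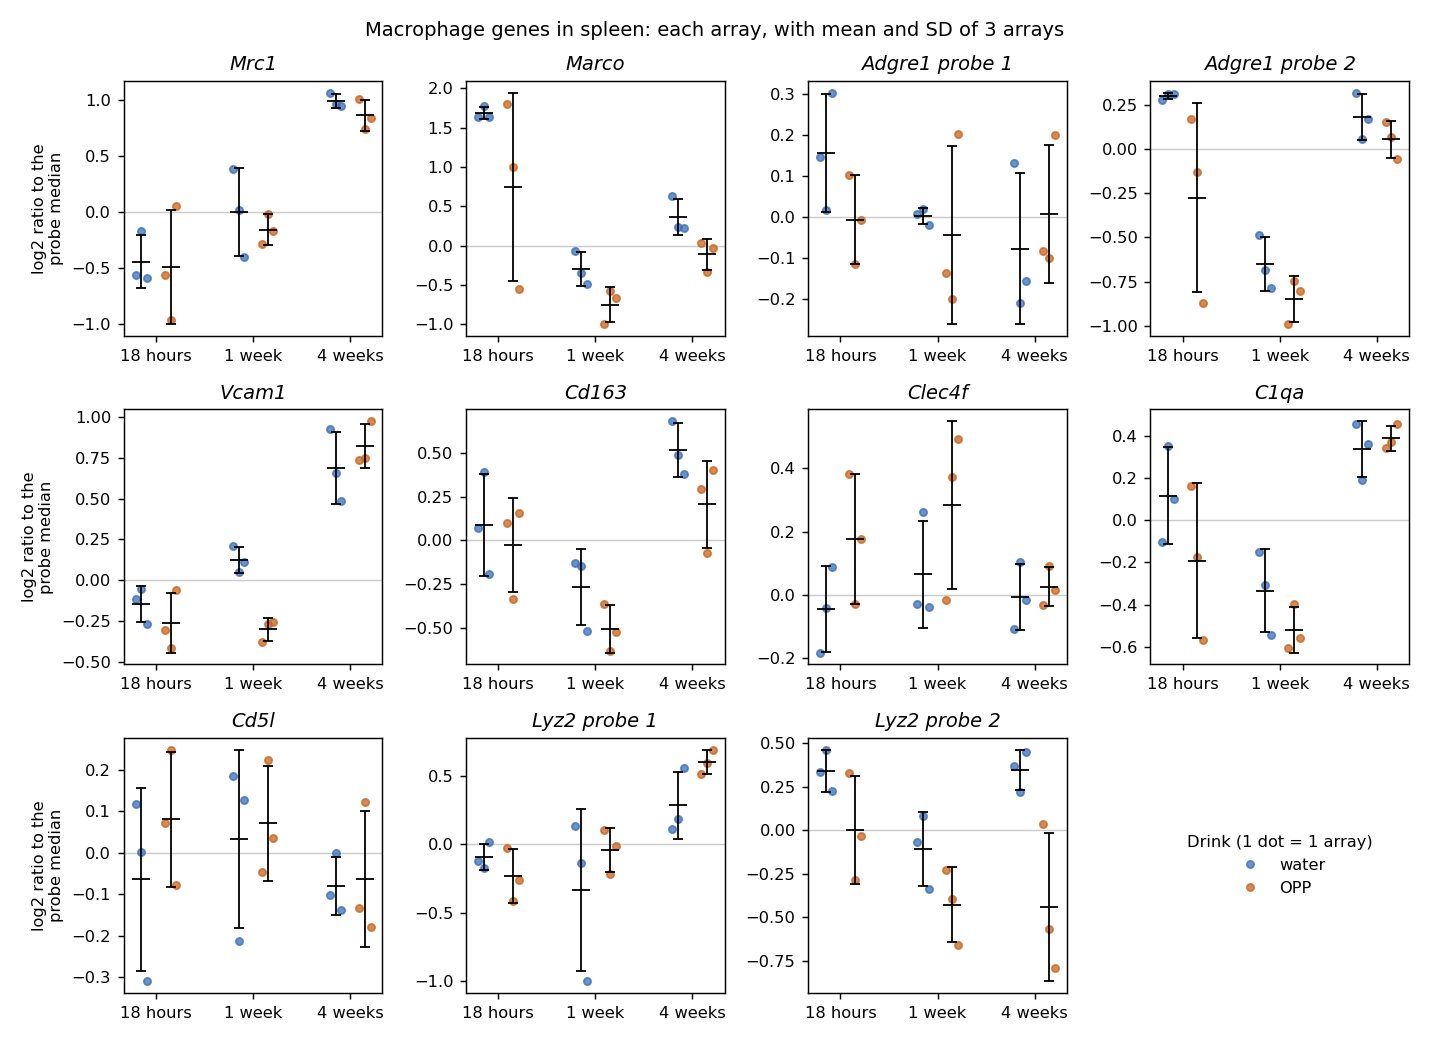
Log2 ratio to the probe median in spleen (vertical axes, a separate scale for each probe) at 18 hours, 1 week and 4 weeks, with 1 dot per array, water in blue and OPP in orange, and bars for the mean and SD of 3 arrays. Mrc1 and Vcam1 are highest in all 6 arrays at 4 weeks, C1qa and Adgre1 probe 2 have their lowest means at 1 week, and 1 OPP array at 18 hours lies low for Marco (-0.56) and Adgre1 probe 2 (-0.87).

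The wider macrophage list rose with them: 22 of 30 genes were higher and 0 lower at 4 weeks than at 1 week in water mice, and 23 of 30 in OPP mice, with list medians of 0.60 and 0.70. After centring it was 19 and 18 of 30, and after quantile normalisation 16 and 17. The iron exporter Slc40a1 rose by 0.71 and 0.94, the apoptotic cell receptor Mertk by 0.92 and 1.05, and C1qc, another chain of complement C1q, by 0.93 in water mice. From 18 hours to 1 week 4 of 30 fell in water mice, among them the lipopolysaccharide co-receptor Cd14 at -1.11 and the nuclear receptor Nr1h3 at -1.20, and 5 of 30 fell in OPP mice. Of the 10 CSF1 receptor ligands and signalling genes 6 rose from 1 to 4 weeks in water mice and 4 in OPP mice, among them Grb2 (0.52 and 0.70), and after centring it was 4 and 2.

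Markers of other spleen cells also moved. Of all probes, 24.4% rose and 1.68% fell from 1 to 4 weeks in water mice, and 28.8% and 1.39% in OPP mice. Some of the counts below lie near these shares, such as 2 of 7 T cell genes in water mice and 3 of 11 monocyte genes in OPP mice. The counts are those before centring or quantile normalisation. The dendritic cell list holds H2-Aa and Cd74, MHC class II presentation genes that are not confined to dendritic cells. From 1 to 4 weeks in water mice 10 of 13 dendritic cell genes, 6 of 8 B cell genes, 2 of 7 T cell genes, 4 of 8 erythroid genes and 5 of 14 endothelial genes rose, while 9 of 14 neutrophil genes fell, and 5 of 11 monocyte genes rose and 1 fell. In OPP mice 6 of 13 dendritic cell genes, 4 of 8 B cell genes, 4 of 7 T cell genes, 3 of 8 erythroid genes, 7 of 14 endothelial genes and 3 of 11 monocyte genes rose and 0 fell, and 0 of 14 neutrophil genes passed, with a list median of -0.43. The neutrophil list median on an array ran from -0.80 to 0.69 at 1 week and from -0.76 to -0.39 at 4 weeks in water mice. Hepatocyte genes had a list median of 0.02, 1.15 and 1.57 in the 3 spleen arrays of water mice at 18 hours and of 0.97 in 1 OPP array at 1 week, against -0.22 to 0.26 in the others. Pancreatic acinar genes had a list median of -6.64 in 1 spleen array of water mice at 1 week and of 5.42 in 1 liver array of OPP mice at 4 weeks. The part of these cells and of tissue picked up with the organ in the macrophage values was not tested.

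The changes of spleen and liver were set against each other in 1 fit of all 36 arrays, averaged over both drinks, a test added after the data had been seen. At 1 week against 18 hours 6 of 11 probes differed between tissues, where 13.5% of all probes did, and at 4 weeks 6 of 11, where 26.5% did. The 1-week difference of Clec4f from 18 hours was 1.93 in liver and 0.11 in spleen, where it passed in neither drink (difference between tissues 1.83, SE 0.15, adjusted p = 3.76e-10). Marco fell in both tissues, with a change of -3.22 in liver and -1.74 in spleen (difference -1.47, SE 0.29, adjusted p = 0.000532). For Adgre1 probe 2 the 4-week difference from 18 hours was -1.91 in liver and 0.11 in spleen, where it passed in neither drink (difference between tissues -2.01, SE 0.17, adjusted p = 5.24e-10). For Lyz2 probe 1 it was -0.90 in liver and 0.61 in spleen, where it passed in OPP mice and not in water mice (difference between tissues -1.50, SE 0.19, adjusted p = 4.91e-07). For Mrc1, which passed in both drinks in either tissue, it was 0.71 in liver and 1.39 in spleen (difference between tissues -0.68, SE 0.19, adjusted p = 0.00605). Each tissue has its own scale, so only these changes can be compared.

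**Figure D3:**
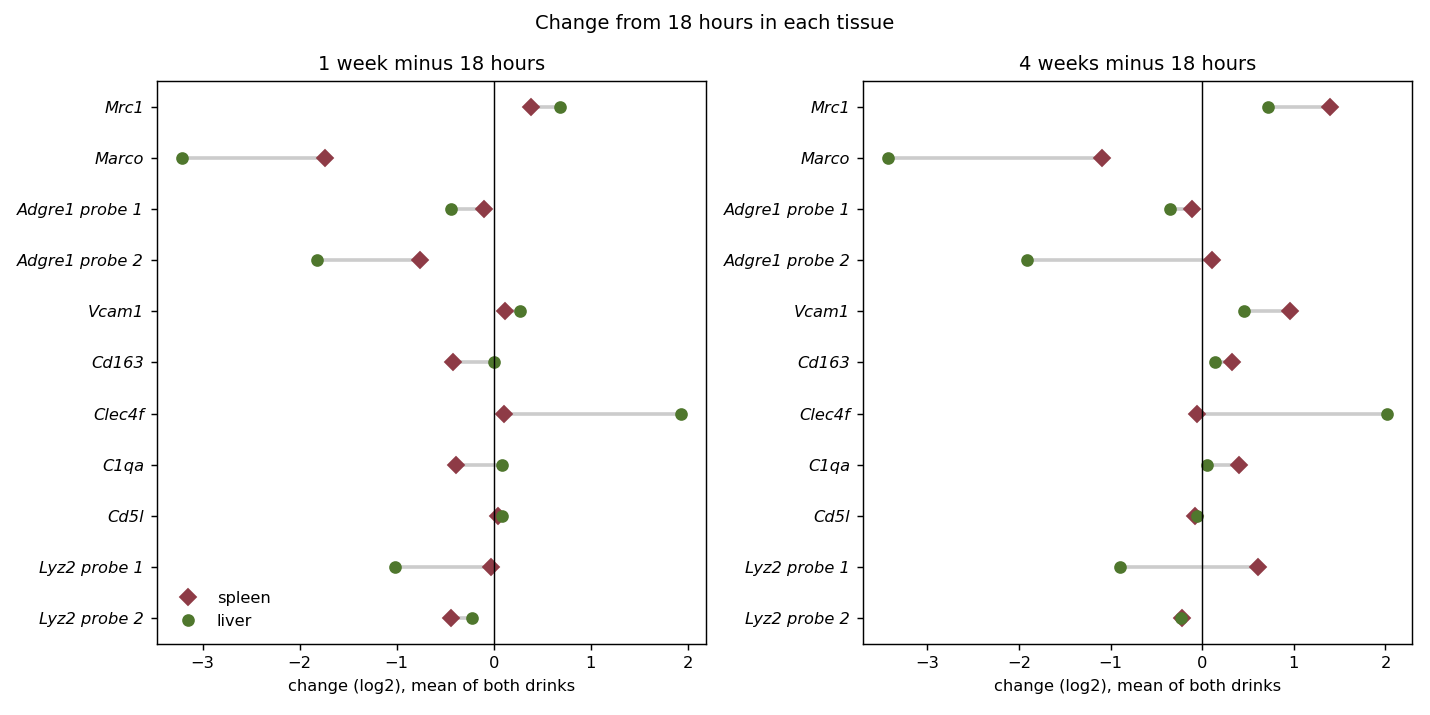
Change from 18 hours to 1 week (left) and to 4 weeks (right) on the log2 scale, mean of both drinks, for each probe in spleen (diamonds) and liver (circles), joined by a grey line. Clec4f lies far above 0 in liver with a spleen value near 0, Marco fell in both tissues, and at 4 weeks Adgre1 probe 2 and Lyz2 probe 1 lie on opposite sides of 0.

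OPP against water at the same time was the treatment comparison. None of the 11 probes passed at any single time in either tissue: of 66 such limma tests 0 had an adjusted p under 0.05 and 8 had an unadjusted p under 0.05, where 9.37% of all such tests over all probes did, and 42 differences were negative. Over all probes 0% changed at 18 hours, 0.00834% at 1 week and 0.334% at 4 weeks in spleen, and 0%, 0.926% and 0.0625% in liver. In 9 of the 66 comparisons the 3 OPP arrays did not overlap with the 3 water arrays, and over all probes this held in 14.9% of such comparisons, so that the members' count is near the background.

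Averaged over the 3 times, 1 of 11 probes passed in spleen, where 1.69% of all probes changed (1.64% lower), and 0 of 11 in liver, where 0.346% did and 1 of the 11 had an unadjusted p under 0.05. The spleen call was Lyz2 probe 2. Its water values were 0.33, 0.46 and 0.22 at 18 hours, -0.07, 0.08 and -0.34 at 1 week and 0.37, 0.22 and 0.45 at 4 weeks, and its OPP values were 0.33, -0.29 and -0.04, then -0.23, -0.40 and -0.66, then 0.03, -0.57 and -0.79. The OPP mean was lower at each time, without overlap at 4 weeks. The averaged difference was -0.48 (SE 0.10, adjusted p = 0.0307), 1.4-fold lower, and the difference at 4 weeks was -0.79 (SE 0.18, adjusted p = 0.0618). The 4-week difference passed with the replicate block (-0.79, adjusted p = 0.0250), with array weights (-0.80, adjusted p = 0.00184), after quantile normalisation (-1.11, adjusted p = 0.0416) and with the compared arrays only (-0.79, adjusted p = 0.0158), and without OPP replicate 1 at 4 weeks it was -1.03 (adjusted p = 0.00367). Over all probes 80 changed at 4 weeks, against 134 with the replicate block and 1375 with array weights. The number was 139 after quantile normalisation and 800 with the compared arrays only. After centring the 4-week difference of Lyz2 probe 2 did not pass. Over the 6 fits that left out 1 of the 4-week arrays it ran from -1.03 to -0.61, with adjusted p from 0.00367 to 0.587. The value of -0.61 was without OPP replicate 3. The call of the averaged difference was lost in 11 of the 18 fits that left out 1 array, with adjusted p from 0.00338 to 0.0822. Without OPP replicate 3 at 18 hours the averaged difference was -0.48 (adjusted p = 0.0551). Lyz2 probe 1 gave 0.16 with the opposite sign (SE 0.11, adjusted p = 0.542), and the mean of both probes did not pass. The Lyz1 probes gave 0.10 and -0.15, which did not pass.

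In liver, Vcam1 came nearest to the threshold. At 1 week it stood at 0.43, 0.65 and 0.11 with water and at -0.43, -0.21 and 0.02 with OPP, and at 4 weeks at 0.68, 0.48 and 0.56 with water and -0.02, -0.18 and 0.18 with OPP. The groups did not overlap at either time, and they did at 18 hours. The differences were -0.60 (SE 0.18, adjusted p = 0.148) and -0.58 (adjusted p = 0.314), and averaged over the times -0.47 (SE 0.10, adjusted p = 0.0587). The averaged difference passed with array weights (-0.52, adjusted p = 0.00918), after centring (-0.47, adjusted p = 0.0368) and after quantile normalisation (-0.63, adjusted p = 0.0167). It also passed without water replicate 3 at 18 hours (-0.54), water replicate 3 at 1 week (-0.52) or OPP replicate 3 at 4 weeks (-0.50). Over all 18 fits that left out 1 array it ran from -0.54 to -0.39, with adjusted p from 0.0149 to 0.131. With the replicate block it did not pass. In spleen the Vcam1 difference at 1 week was -0.42, with no overlap and no call (SE 0.12, adjusted p = 0.234).

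Marco in spleen was lower with OPP at each time, with differences of -0.94, -0.45 and -0.48, and the averaged difference of -0.62 did not pass (SE 0.20, adjusted p = 0.104). It passed with array weights (-0.66, adjusted p = 0.0359) and without OPP replicate 1 at 18 hours (-0.80, adjusted p = 0.0165). Leaving out OPP replicate 3 at 18 hours gave -0.40, which did not pass (adjusted p = 0.0684). Adgre1 probe 2 gave -0.30 (adjusted p = 0.119), or -0.37 without OPP replicate 1 at 18 hours, which passed (adjusted p = 0.0261). Without OPP replicate 3 at 18 hours it gave -0.20 and did not pass (adjusted p = 0.133). Intervals show what these arrays could not settle: the averaged 95% interval of Mrc1 ran from -0.35 to 0.13 in spleen and from -0.32 to 0.03 in liver, and that of Marco in liver from -0.26 to 0.08. For C1qa in liver it ran from -0.12 to 0.17, and for Cd5l from -0.09 to 0.22 in spleen and -0.04 to 0.18 in liver.

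Of the wider macrophage list 2 of 30 were lower with OPP in the spleen average, the fatty acid receptor Cd36 at -0.36 and the ficolin Fcna at -0.26, and neither passed after centring or quantile normalisation, where the count was 0. The list median was -0.17 against -0.01 for all probes. In liver 1 of 30 was higher, the transcriptional regulator Id3, at 0.87 at 1 week and 0.49 on average. Among other lists in the spleen average, 2 of 13 genes of the dendritic cell list were lower, H2-Aa at -0.48 and Cd74 at -0.30. Both are MHC class II presentation genes, which are not confined to dendritic cells. Also lower were 1 of 11 monocyte genes, 1 of 14 endothelial genes, 1 of 14 hepatocyte genes and 1 of 10 CSF1 receptor signalling genes. Of 14 neutrophil, 8 B cell, 7 T cell, 8 erythroid and 8 pancreatic genes 0 passed. The list median was -0.17 for the dendritic cell list and -0.14 for the B cell list, where 7 of 8 differences were negative.

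**Figure D4:**
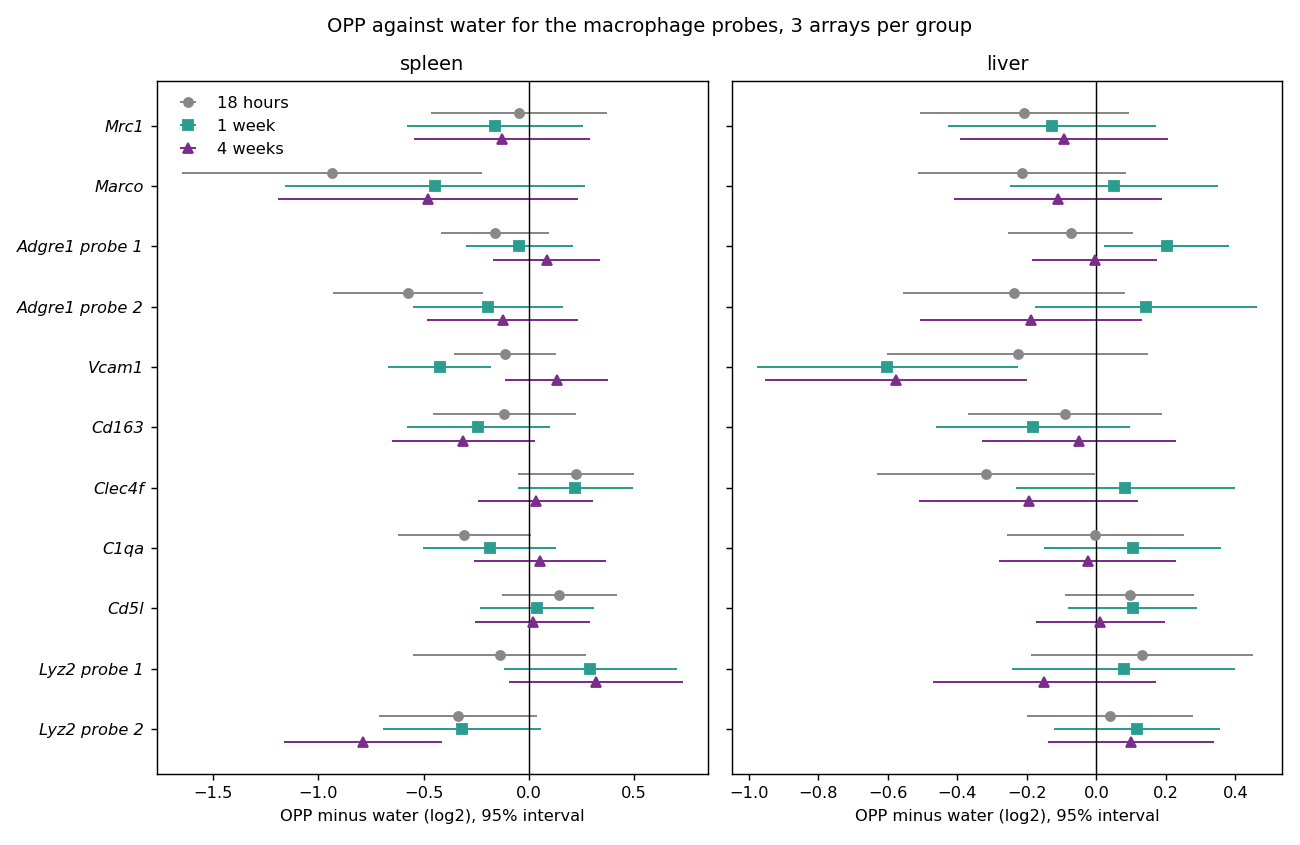
OPP minus water on the log2 scale (horizontal axes) for each probe at 18 hours, 1 week and 4 weeks in spleen and liver, with 95% intervals from the limma fit, 3 arrays per group. Lyz2 probe 2 at 4 weeks in spleen (-0.79) and Vcam1 at 1 and 4 weeks in liver (-0.60 and -0.58) lie clear of 0, though none has an adjusted p under 0.05.

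How the probes ran with each other is given as a description over the 18 arrays of a tissue, which share the differences between times. In liver, Marco correlated at 0.99 with Adgre1 probe 2, at 0.93 with Lyz2 probe 1 and at -0.96 with Clec4f, and Mrc1 at 0.91 with Clec4f. Once group means were removed Marco and Clec4f correlated at 0.14, whereas Marco and Adgre1 probe 2 kept 0.61. In spleen, Mrc1 and Vcam1 correlated at 0.91, Adgre1 probe 2 and C1qa at 0.89, and Marco and Adgre1 probe 2 at 0.80, or 0.96 within groups. Most of the spread within groups lay in the OPP group at 18 hours, where replicate 3 was low for both probes. The SD there was 1.20 for Marco and 0.53 for Adgre1 probe 2, against at most 0.23 and 0.15 in the other spleen groups. The 2 Adgre1 probes correlated at 0.91 in liver and at 0.24 in spleen.

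The genes outside the set with the most similar pattern were named by Pearson correlation over 18 arrays. C1qa in spleen lay nearest to C1qc and C1qb, both at 0.97, which encode the other chains of the same protein. Clec4f in liver lay nearest to Sardh, an enzyme of sarcosine breakdown, at 0.99 and to Vsig4 at 0.98. Marco in liver lay nearest to Tnfrsf8, the receptor CD30, at 0.99, and Adgre1 probe 2 to Steap4, a metalloreductase, at 0.99. In spleen Marco lay nearest to Tubb6 at 0.97 and Irak3 at 0.96, Mrc1 to Ube2g1 at 0.98, Vcam1 to Ergic3 at 0.98 and Cd163 to Pecam1 at 0.94.

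**Figure D5:**
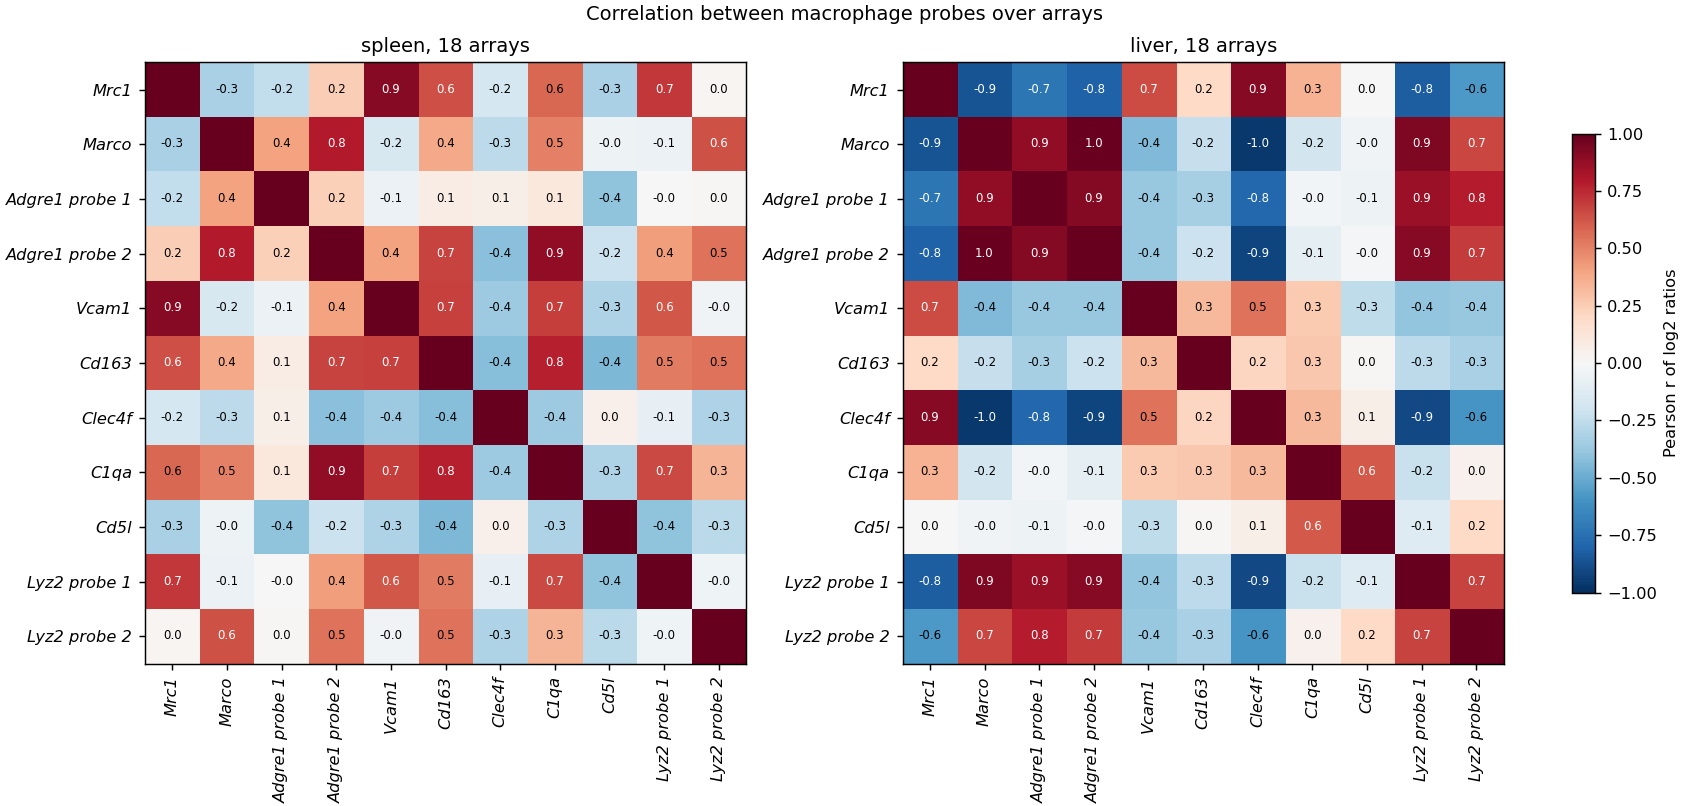
Pearson correlation of log2 ratios between the 11 probes over 18 arrays of spleen (left) and liver (right), red for positive and blue for negative. Liver shows a block of Marco, Adgre1 and Lyz2 set against Mrc1 and Clec4f, and spleen pairs Mrc1 with Vcam1 (0.91) and Adgre1 probe 2 with C1qa (0.89).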

How the data were processed

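Total RNA of 36 spleen and liver samples was labelled with biotin and read on Illumina BeadChip arrays, per the labels' protocols. The deposited value table of the authors holds linear ratios, centred in each tissue on a median of 1 for every probe (1 in spleen, 0.9995 to 1.0005 in liver, as found on the file). They ran from 0.01 to 354.3, and 20 values stood at 0.01. Background correction and scaling are not given in the sources used here. A table of unnormalised signals was not used, since its 72 columns of per-sample values match no sample label. Precision is limited by the number of arrays.

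No offset or filter was applied. The log2 ratios of each tissue were fitted with limma 3.58.1 (R 4.3.3, moderated with eBayes), with a mean per group and 12 residual degrees of freedom, in 22 comparisons, and p-values were adjusted by Benjamini-Hochberg over all 23982 probes. The procedure was tested on simulated data. Symbols of the platform annotation were updated through the gene identifier to RefSeq (GRCm38.p6), which left 19344 probes with a single symbol and 4638 without. A gene of a list stands with its probe of highest SD. The naming rule covers all member probes in every comparison, for each list the 4 called genes of smallest p, and the 3 genes nearest by correlation. Members and lists were chosen with earlier results of these data known, and the comparison of tissues was added after seeing the data.

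Alternatives were a replicate block, array weights, centring, quantile normalisation, the compared arrays only, the mean of a gene's probes and leaving out each array. Samples were not treated as paired by replicate number, since in no comparison did every same-numbered pair correlate over 0.1. From 1 to 4 weeks in spleen of water mice these correlations were 0.17, 0.04 and 0.25. There each 4-week array was nonetheless closest to the 1-week array of its own number. The same held in spleen of OPP mice and liver of water mice, and from 18 hours to 4 weeks in liver of OPP mice. Whether replicate numbers mark a shared structure is therefore not settled.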

Additional observations from a re-analysis of the deposited data

Results flagged for a closer look

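The change from 18 hours differed between liver and spleen for 6 of 11 probes at each later time, by the test of the difference itself (limma, all 36 arrays, mean of both drinks, adjusted over all probes), a test chosen after seeing the data. Of all probes 13.5% differed at 1 week and 26.5% at 4 weeks, with median differences of 0.03 and -0.09 over all probes. Each value below is the liver change minus the spleen change on the log2 scale.

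At 1 week the difference was 1.83 for Clec4f (adjusted p = 3.76e-10), -1.47 for Marco (adjusted p = 0.000532), -1.06 for Adgre1 probe 2 (adjusted p = 5.57e-05) and -0.34 for Adgre1 probe 1 (adjusted p = 0.0281). It was -0.997 for Lyz2 probe 1 (adjusted p = 0.000378) and 0.47 for C1qa (adjusted p = 0.0239), where the C1qa differences were 0.08 in liver and -0.39 in spleen, and neither tissue passed on its own in either drink.

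At 4 weeks the difference was 2.08 for Clec4f (adjusted p = 9.55e-12), -2.34 for Marco (adjusted p = 3.51e-07), -2.01 for Adgre1 probe 2 (adjusted p = 5.24e-10) and -1.50 for Lyz2 probe 1 (adjusted p = 4.91e-07). It was -0.68 for Mrc1 (adjusted p = 0.00605) and -0.50 for Vcam1 (adjusted p = 0.0167).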

How the results depend on the processing

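No difference of a member probe that passed changed its sign under any alternative run. Of the calls, 43 stayed and 5 were lost with quantile normalisation, 46 and 2 with centring, 47 and 1 with array weights, 46 and 1 with the compared arrays only, and 264 and 36 over the fits that left out 1 array. The liver calls of Marco, Adgre1 probe 2, Clec4f and Lyz2 probe 1 between 18 hours and later times were kept in all of these. The cause of the lost calls was not tested. With a replicate block 48 calls stayed and 0 were lost, and 3 values newly passed.

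The count of probes that passed moved as follows. For OPP against water in spleen at 4 weeks it went from 0 to 1 with the replicate block, array weights or quantile normalisation and to 2 with the compared arrays only, and averaged over the times from 1 to 2 with array weights and to 0 with the mean of a gene's probes. In liver it went from 0 to 1 at 1 week with array weights or quantile normalisation, and averaged from 0 to 1 with these or centring. Between 18 hours and 4 weeks in spleen of water mice it went from 3 to 5 with the compared arrays only, and between 18 hours and 1 week in OPP mice from 1 to 2 with quantile normalisation.

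The count from 1 to 4 weeks in spleen went from 6 to 5 with centring and 4 with quantile normalisation in water mice, and in OPP mice it was 6 in each, with Clec4f newly lower and Lyz2 probe 1 lost under both.

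Leaving out 1 array gave 0 to 1 for OPP against water in spleen at 4 weeks, 0 to 3 for the spleen average and 0 to 1 for the liver average. Between 18 hours and 1 week in spleen it gave 0 to 2 in water mice and 0 to 3 in OPP mice. Over all probes the same fits gave 0 to 271, 16 to 1118 and 30 to 363 for these OPP comparisons. Between 18 hours and 1 week in spleen they gave 2 to 935 in water mice and 48 to 1144 in OPP mice. The tissue comparison ranged from 4 to 7 at 1 week and from 6 to 7 at 4 weeks.

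Counts over all probes, which the members are read against, moved more. From 18 hours to 4 weeks in spleen of water mice 5838 probes changed, against 3484 after centring and 3291 after quantile normalisation, and from 1 to 4 weeks 6263, against 3423, 2184 and, with the compared arrays only, 2342. In OPP mice the 1 to 4 week count went from 7229 to 4611 and 4111. For 18 hours to 1 week in spleen of water mice it went from 156 to 578 with quantile normalisation and 31 with the compared arrays only, and in liver of OPP mice from 4141 to 2601 with quantile normalisation. The OPP average in spleen gave 406, against 953 with array weights, 155 with centring and 205 with quantile normalisation, and in liver 83, against 578, 148 and 331. OPP against water in spleen at 4 weeks gave 80, against 134 with the replicate block and 1375 with array weights. It gave 139 with quantile normalisation and 800 with the compared arrays only. In liver at 1 week it gave 222, against 316 with array weights and 397 with quantile normalisation.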
